A study of Ovis aries with 36 samples.

Results

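The genes described here are those that encode collagen chains, taken as every locus whose gene name is COL, a number, A and a number, and that had 10 or more counts summed over the 12 libraries of a tissue. This gave 49 of 51 collagen loci in fetal longissimus dorsi muscle (25351 of 34958 loci of all kinds had that many counts), 44 of 48 in subcutaneous fat (24536 of 34246) and 45 of 51 in perirenal fat (25168 of 35060). They stood for 43 genes of 16899 named genes: 11 encode fibrillar collagens, 8 encode basement membrane collagens and 24 encode other types, of which 22 reached the minimum in each fat. The test kept loci with enough counts in the smallest group, which left 39 loci of 36 genes in muscle, 35 loci of 34 genes in subcutaneous fat and 33 loci of 31 genes in perirenal fat, and the remaining members were too low to be tested. Because this filter acts on counts, the tested loci are the more abundant members.

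Collagens are triple helices of 3 chains that are assembled inside the cell, trimmed and cross-linked outside it. Fibrillar collagens (types I, III and V in most connective tissue, types II and XI in cartilage) form the cables that carry load. Type IV collagen forms the sheet of the basement membrane that surrounds muscle fibres, adipocytes and blood vessels, and collagens XV and XVIII sit at its edge. The other types include the beaded filaments of collagen VI, the fibril-associated collagens such as XII and XIV, transmembrane collagens such as XIII, XVII and XXIII, and the short-chain networks of VIII and X.

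The libraries came from fetuses of naturally bred Polypay ewes that shared 1 sire and were given 1 of 3 isoenergetic diets from mid to late gestation. The diets were alfalfa haylage (HY), a source of fibre, corn (CN), a source of starch, and distillers grains of corn (DG), a source of fibre, protein and fat. Haylage was offered freely and the other diets were limit-fed, so there was no untreated group. RNA of the 26 fetuses, carried by 15 dams, was divided into 2 female (F1, F2) and 2 male (M1, M2) pools per diet and tissue. Every pool except CN F2 shared a dam with at least 1 other pool of its diet. A pool held 2 or 3 fetuses, except CN F2, which held 1 fetus and so is a single animal in every tissue. Each of the 9 groups therefore had 4 pools, and p-values measure the spread between pools. The tests took pools as independent, which pools with a shared dam are not, so p-values may be too small. The 3 diet comparisons within a tissue share samples with each other.

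The 36 libraries held 6705766 to 29625146 counts (median 14406914), with the deepest in muscle (13749762 to 29625146) and the shallowest reaching 6705766 in subcutaneous fat. Levels are given as CPM, the count of a locus scaled by the effective total of its library. Skeletal muscle markers summed to 108753 to 161489 CPM in muscle and to 9.49 to 623 CPM in perirenal fat, whereas in 5 subcutaneous pools they reached 44492 to 122788 CPM (CN F2, DG F1, DG F2, DG M2 and HY F2) against 759 to 16545 CPM in the other 7. Adipocyte markers summed to 95.6 to 208 CPM in muscle, 2266 to 12587 CPM in subcutaneous fat and 6446 to 16558 CPM in perirenal fat. Endothelial markers reached 860 CPM or more in every pool, leukocyte markers lay between 56.8 and 380 CPM, and epidermal markers (20.3 to 57.0 CPM) and kidney and adrenal markers (17.0 to 44.4 CPM) were low in every pool. In such bulk tissue, fewer cells of a type and less RNA per cell cannot be told apart.

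The collagen loci took a median of 0.916% of a library's counts in muscle, 0.874% in subcutaneous fat and 0.657% in perirenal fat. Fibrillar chains held most of the collagen counts in every muscle pool (58.6% or more) and every subcutaneous pool (55.9% or more). In 4 of 12 perirenal pools (CN F1, DG M2, HY F1 and HY F2) they held only 42.2% to 47.5% of them, against 45.5% to 49.4% for basement membrane chains. Fibrillar chains took 0.457% to 0.805% of counts in muscle (median 0.565%), 0.397% to 0.88% in subcutaneous fat (median 0.563%) and 0.222% to 0.868% in perirenal fat (median 0.348%), so the ranges overlapped. Basement membrane chains took a median of 0.257% in muscle, 0.214% in subcutaneous fat and 0.257% in perirenal fat. The other types took medians of 0.0831%, 0.081% and 0.047%, and the perirenal range (0.0391% to 0.0861%) again overlapped those of muscle (0.0662% to 0.123%) and subcutaneous fat (0.0524% to 0.123%). Summed over classes, collagen took 0.729% to 1.17% of counts in muscle, 0.683% to 1.15% in subcutaneous fat and 0.491% to 1.2% in perirenal fat. These are shares of reads, not of transcripts, because long chains gather more reads than short ones.

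**Figure D1:**
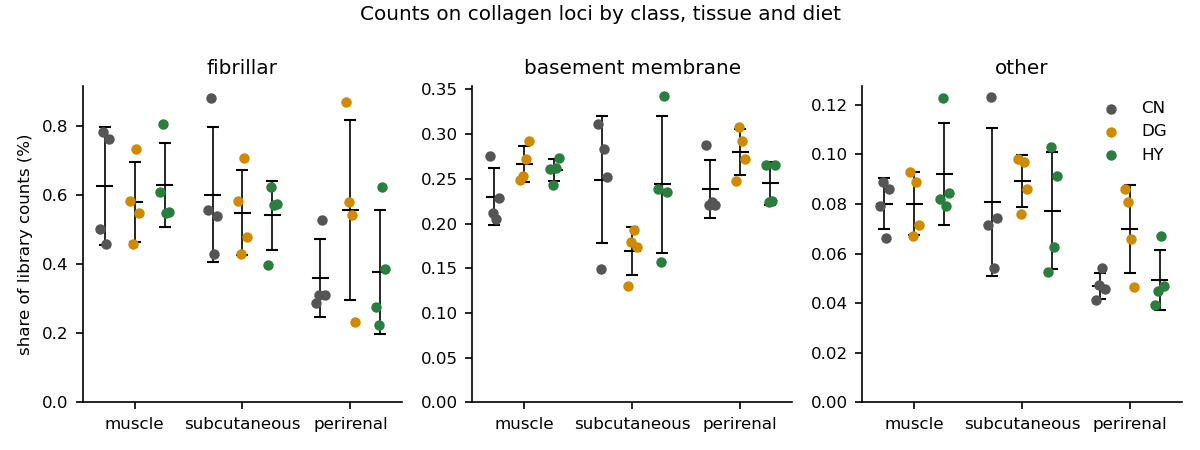
Share of each library's counts (%, vertical axis, from 0) that fell on fibrillar, basement membrane and other collagen loci, by tissue and diet (CN, DG, HY). Points are pools, the horizontal bars are means and the error bars are SD (n = 4). The fibrillar share of perirenal DG pools ran from 0.232% to 0.868%, the widest spread of the 9 groups.

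By diet, the fibrillar share averaged 0.625% ± 0.17 (SD, n = 4) in CN, 0.579% ± 0.115 in DG and 0.628% ± 0.121 in HY muscle, differences smaller than the spread between pools. In perirenal fat it averaged 0.359% ± 0.113 in CN, 0.556% ± 0.26 in DG and 0.377% ± 0.178 in HY. Pool by pool, the perirenal DG values were 0.868%, 0.579%, 0.543% and 0.232%, so that 3 of 4 DG pools were above the highest CN pool (0.528%, M1) and the fourth, M2, was below all CN pools. The basement membrane share in muscle averaged 0.23% ± 0.0315 in CN, 0.266% ± 0.0202 in DG and 0.26% ± 0.0123 in HY, and in subcutaneous fat it averaged 0.249% ± 0.0711, 0.169% ± 0.0269 and 0.244% ± 0.0762, in each case with overlapping groups.

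In muscle, DG over CN called 2 of 39 collagen loci, both higher, at a false discovery rate (FDR, the Benjamini-Hochberg adjusted p of edgeR's quasi-likelihood test) ≤0.05, and HY over CN called 5 of 39, of which 4 were higher and 1 lower. Among all 18573 loci, DG over CN called 1.01% (0.975% higher, 0.0377% lower) and HY over CN called 2.69% (2.44% higher, 0.248% lower). The loci called higher encoded a basement membrane chain (COL4A2), beaded filament chains (COL6A1 and COL6A2) and a fibrillar chain (COL5A1), and the locus called lower was a minor locus of COL3A1. The median log2 fold change of the 39 collagen loci was 0.12 for DG over CN and 0.13 for HY over CN, against -0.0024 and -0.018 over all loci. With any 1 pool left out, these collagen medians ran from -0.0581 to 0.201 and from 0.0393 to 0.23. At an unadjusted p below 0.05 there were 13 collagen loci in DG over CN (7 higher, 6 lower) and 10 in HY over CN (8 higher, 2 lower). Of all loci 16.3% (10.7% higher, 5.62% lower) and 20.4% (12.4% higher, 8.01% lower) had such a p. The pools of the compared diets did not overlap for 7 and 6 collagen loci, against 8.66% and 12.4% of all loci.

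COL4A2, the partner chain of COL4A1 in the most widespread type IV collagen, showed the largest difference of the called loci. Its main locus (locus XLOC_003475, chromosome 10, 84344245 to 84507465 of Oar_v3.1) was at 107, 82.7, 52.6 and 90.4 CPM in the CN pools F1, F2, M1 and M2, at 242, 215, 236 and 215 CPM in the DG pools and at 272, 231, 211 and 224 CPM in the HY pools. Every DG and HY pool was above every CN pool, and DG and HY overlapped. COL4A2 rose by 1.45 on the log2 scale in DG over CN (SE 0.173, FDR 0.00371) and by 1.49 in HY over CN (SE 0.173, FDR 0.00342). The call held whichever pool was left out (highest FDR 0.0172 and 0.0207). In muscle 11.1% of COL4A2 counts fell on a second locus of the same name (XLOC_003742), which differed by 0.44 (SE 0.452, FDR 0.664) and 0.04 (SE 0.454, FDR 0.923).

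COL4A1, whose product is assembled with that of COL4A2, did not follow it in muscle. It was at 1902, 1225, 1179 and 1496 CPM in CN pools, at 1240 to 1802 CPM in DG pools and at 1332 to 1660 CPM in HY pools, and its log2 differences of 0.12 (SE 0.171, FDR 0.767) and 0.11 (SE 0.171, FDR 0.767) were within the spread between pools. The log2 ratio of COL4A2 to COL4A1 counts averaged -3.85 ± 0.277 (SD, n = 4) in CN, -2.61 ± 0.31 in DG and -2.61 ± 0.175 in HY. The CN pools lay below all others, a difference of 1.24 for each diet (SE 0.208 and 0.164, exact permutation p = 0.0286, the smallest that 4 against 4 pools allows, adjusted 0.161 over 45 ratio tests). The level of this ratio carries the chains' unequal lengths, so it was read only between diets.

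Collagen VI, the beaded filament that links basement membranes to the fibrils around muscle fibres, was represented in muscle by COL6A1, COL6A2, COL6A3, COL6A5 and COL6A6. COL6A2 (XLOC_001246, chromosome 1, 263959126 to 263975267) was at 60.9, 50.9, 41.7 and 66.2 CPM in CN pools, at 117, 83.8, 96.9 and 73.1 CPM in DG pools and at 109, 119, 88.2 and 95.0 CPM in HY pools. Every DG and HY pool was above every CN pool. COL6A2 rose by 0.75 in DG over CN (SE 0.167, FDR 0.0495) and by 0.90 in HY over CN (SE 0.168, FDR 0.0178). The DG call was lost without any 1 of 11 of the 12 pools (FDR 0.0607 to 0.144, all but DG M2), and the HY call without CN M1 (0.0548), HY F1 (0.0678) or HY F2 (0.0639).

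COL6A1 (XLOC_001245, chromosome 1, 263808988 to 263831367) was at 72.4, 74.7, 46.1 and 74.8 CPM in CN pools, at 163, 91.4, 115 and 84.1 CPM in DG pools and at 126, 176, 106 and 111 CPM in HY pools, again with no overlap with CN. It rose in HY over CN by 0.95 (SE 0.224, FDR 0.0415), and in DG over CN it differed by 0.75 (SE 0.223, FDR 0.127). The call was lost without any 1 of 8 pools (CN F1, M1 or M2, DG F2 or M1, HY F1, F2 or M2; FDR 0.0522 to 0.152). COL6A3, the long chain of the same heterotrimer, was at 408 to 526 CPM in CN, 375 to 429 CPM in DG and 410 to 568 CPM in HY, with log2 differences of -0.31 (FDR 0.271) and -0.09 (FDR 0.735). The log2 ratio of COL6A3 to COL6A1 was thus lower by 1.03 in DG (difference -1.03, SE 0.241) and by 1.05 in HY (difference -1.05, SE 0.116) than in CN, with no overlap of pools (exact permutation p = 0.0286, adjusted 0.161). Pool DG F1 had the lowest of these log2 ratios (1.204) and the highest of COL4A2 to COL4A1 (-2.175). Pool CN M1 had the highest (3.137) and the lowest (-4.26), so the ratios are not separate observations. Base composition of these genes was not checked and its part was not tested.

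COL5A1 encodes a chain of type V collagen, which starts the assembly of type I fibrils. Its locus (XLOC_023057, chromosome 3, 1380401 to 2947319) was at 96.2, 84.1, 65.2 and 99.2 CPM in CN pools, at 165, 115, 130 and 119 CPM in DG pools and at 130, 166, 115 and 129 CPM in HY pools. All DG and HY pools were above all CN pools. COL5A1 rose by 0.65 in HY over CN (SE 0.158, FDR 0.0478) and differed by 0.62 in DG over CN (SE 0.158, FDR 0.0816), and the call was lost without any 1 of 10 pools (all but CN F2 and DG F1; FDR 0.0534 to 0.167). Its partner COL5A2 differed by 0.12 (SE 0.236, FDR 0.838) and 0.41 (SE 0.236, FDR 0.351).

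COL3A1, the chain of type III collagen, was split over a pair of loci listed at the same place (chromosome 2, 119228437 to 119270385), as were COL4A2 and COL1A2 in muscle. The files give no strand, so which reads of a gene fell on which of its loci cannot be told apart further. The minor locus (XLOC_014527, 13.1% of COL3A1 counts) was at 678, 791, 576 and 1019 CPM in CN pools, at 375, 512, 511 and 518 CPM in DG pools and at 431, 405, 563 and 468 CPM in HY pools. It fell by 0.72 in HY over CN (SE 0.178, FDR 0.0493), a call lost without any 1 of 11 pools (all but DG F1; FDR 0.0511 to 0.159), and differed by -0.68 in DG over CN (FDR 0.0891). The major locus (XLOC_015553, 86.9% of the counts) differed by only -0.13 (SE 0.208, FDR 0.778) and -0.25 (SE 0.209, FDR 0.588), so the lower value is not one of COL3A1 as a whole.

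**Figure D2:**
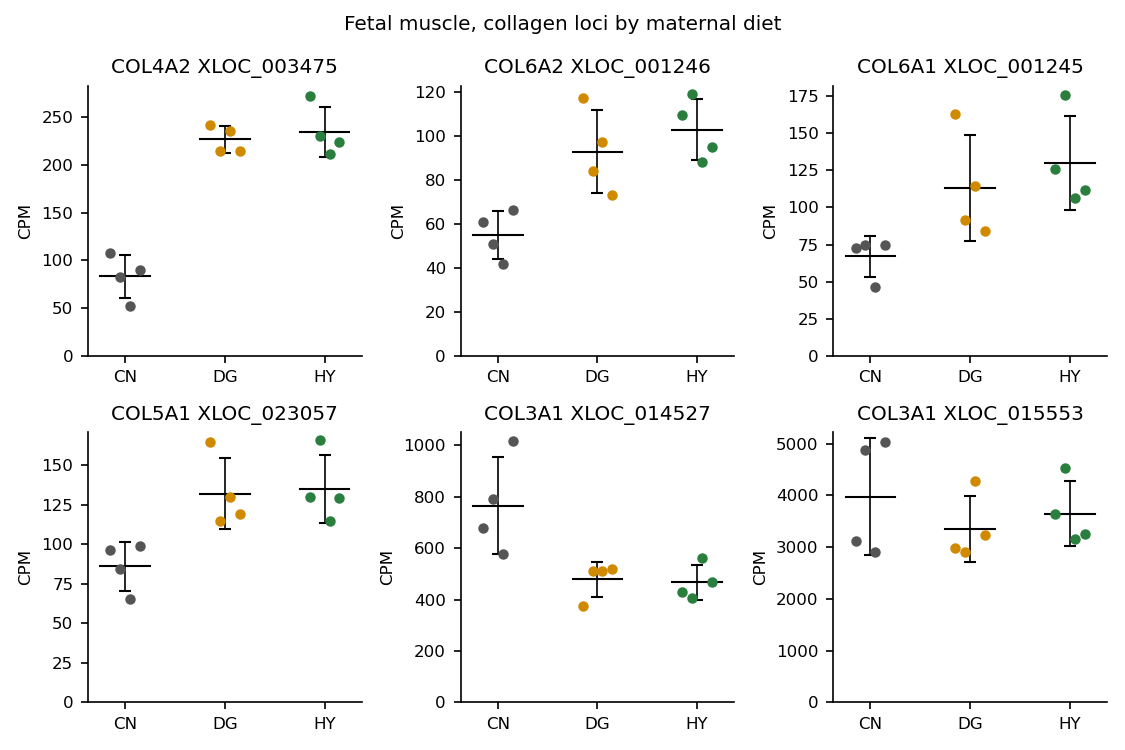
CPM (vertical axes, from 0) of 6 collagen loci in muscle by maternal diet, with a point per pool, the mean as a horizontal bar and SD as error bars (n = 4). The DG and HY points of COL4A2, COL6A2, COL6A1 and COL5A1 all lie above the CN points, those of the minor COL3A1 locus all lie below them, and those of the major COL3A1 locus overlap.

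The loci of type I collagen, the main load-bearing collagen, did not pass the test in muscle. COL1A1 differed by 0.23 (SE 0.223, FDR 0.651) in DG over CN and 0.35 (SE 0.224, FDR 0.406) in HY over CN. COL1A2 counts were divided between XLOC_024970 (72.8%) and XLOC_025491 (27.2%), and these went in opposite directions, by 1.33 (SE 0.369, FDR 0.0702) and -0.45 (SE 0.205, FDR 0.239) in HY over CN. Basement membrane genes close to the threshold were COL18A1 in DG over CN (0.89, SE 0.238, FDR 0.094), at 11.3 to 24.8 CPM in CN and 27.7 to 35.8 CPM in DG pools, and COL4A6 in HY over CN (1.36, SE 0.368, FDR 0.0623), at 0.584 to 2.1 CPM in CN and 2.41 to 4.74 CPM in HY pools. COL15A1, the multiplexin of the outer face of the basement membrane, differed by 0.04 and 0.03 (SE 0.112 each) and had the lowest spread between pools of all tested collagens in muscle. The fibril-associated COL12A1 differed by -0.38 (FDR 0.371) and 0.08 (FDR 0.862), and COL14A1 by 0.26 (FDR 0.742) and 0.75 (FDR 0.24).

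DG and HY were not separable for any collagen locus in muscle. Of 39 loci 0 were called, as in 0% of all loci, with 5 at an unadjusted p below 0.05 (all lower in DG, as were 1.2% of all loci at that p) and 0 called by DESeq2 (0.0108% of all loci). The lowest p-values were those of COL6A6 (-0.71, SE 0.218) and COL6A5 (-0.77, SE 0.278), both with FDR 1 in edgeR's quasi-likelihood test. COL4A2 itself differed by -0.05 (SE 0.169), and the pools overlapped for every collagen locus (1.83% of all loci did not overlap).

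Of the genes that process, bind or remove collagen, muscle had few that passed. In the list of basement membrane partners, DG over CN called 2 of 13 loci and HY over CN the same number, all higher (0.975% and 2.44% of all loci were called higher), led by HSPG2 (perlecan, a heparan sulphate proteoglycan that binds type IV collagen networks), which rose by 1.36 (FDR 0.0146) and 1.03. The other was LAMA5, a laminin chain, which rose by 1.21 (FDR 0.0274) and 0.95. Median log2 differences of this list were 0.20 and 0.38. In HY over CN the collagen breakdown list had 2 of 9 loci called higher, MRC2 (an endocytic collagen receptor, 1.39, FDR 0.0264) and MMP14 (a membrane-bound collagenase, 0.67, FDR 0.0386). The chain modification list had 1 of 17 called lower, against 0.248% of all loci, which was PLOD2 (a lysyl hydroxylase needed for stable cross-links), which fell by 0.53 (FDR 0.0245). The lists of propeptide removal and cross-linking enzymes, receptors and fibril-binding proteoglycans had 0 called in either comparison with edgeR, although 4 of 10 proteoglycan loci in DG over CN and 3 of 10 in HY over CN were lower at an unadjusted p below 0.05 (5.62% and 8.01% of all loci).

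In subcutaneous fat no collagen locus was called between any pair of diets. The counts were 0 of 35 for DG over CN, HY over CN and DG over HY by edgeR's quasi-likelihood test, as they were for all 18008 loci (0%), with 2, 4 and 2 collagen loci at an unadjusted p below 0.05. Of all loci 15%, 4.35% and 18.1% had such a p. DESeq2 called 0, 0 and 1 collagen loci, against 1.48%, 0% and 5.14% of all loci. Pools did not overlap for 0, 1 and 2 of the 35 loci, against 6.84%, 2.8% and 9.19% of all loci. The within-diet SD of log2 CPM had a median of 0.588 over the collagen loci here, against 0.363 in muscle and 0.444 in perirenal fat. The SE was correspondingly wide, for example 0.502 for COL1A1 (0.13 in DG over CN, 0.0024 in HY over CN), 0.279 for COL3A1 (-0.13 and -0.25) and 0.383 for COL4A2 (-0.22 and 0.37).

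COL18A1, the basement membrane collagen whose tail is released as endostatin, was the locus DESeq2 called in DG over HY. It was at 54.0, 18.1, 19.8 and 19.6 CPM in CN pools, at 26.4, 17.8, 26.5 and 18.7 CPM in DG pools and at 69.8, 39.96, 51.6 and 65.0 CPM in HY pools. All HY pools were above all DG pools, whereas CN F1 stood with the HY pools. The DG pools F1, F2 and M2 and the HY pool F2 were rich in muscle markers, so diet and muscle content were partly confounded. With those markers as a covariate, edgeR called 0 of 35 collagen loci in DG over HY (0% of all loci). The COL18A1 log2 difference was -1.34 for DG over HY (SE 0.344, FDR 0.117 by edgeR and 0.0111 by DESeq2). With the pool number as a replicate block, edgeR gave -1.33 (FDR 0.0411, with 1.47% of all loci called). That block joins pools of different diets that hold different fetuses, so it carries no real pairing. The log2 difference was 1.02 for HY over CN (FDR 0.944) and -0.32 for DG over CN (FDR 0.621). In DG over HY the next lowest FDR was that of COL5A3, a minor type V chain (-0.50, FDR 0.24).

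The other lowest values were COL4A1 (-0.56, SE 0.235, FDR 0.313) and COL5A1 (0.51, SE 0.229, FDR 0.331) in DG over CN, and COL5A1 in HY over CN (0.63, SE 0.229, FDR 0.944). COL5A2 differed by -0.02 and -0.33 in the same comparisons, and the log2 ratio of COL5A1 to COL5A2 was higher by 1.01 in HY than in CN (SE 0.271, no overlap, exact permutation p = 0.0286, adjusted 0.161). The collagen VI chains COL6A1 (0.57 and 0.64), COL6A2 (0.66 and 1.09) and COL6A3 (0.17 and -0.22) had FDR of 0.475 or more in DG over CN and HY over CN. COL1A2 (0.61 and 0.21), COL15A1 (0.05 and 0.00049), COL12A1 (0.30 and -0.40) and COL14A1 (0.47 and -0.04) were likewise within the spread between pools.

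Some subcutaneous pools were high for COL2A1 and COL28A1. COL2A1, the cartilage fibril chain, was at 62.0 CPM in HY F2, 31.4 CPM in CN F2 and 26.3 CPM in CN M1, and at 10.3 CPM or less in the other 9 pools. COL28A1, a collagen of peripheral nerve, reached 30.5 CPM in HY F2 and 9.11 CPM or less elsewhere. In the same pools HY F2, CN F2 and CN M1 the Schwann cell markers summed to 6479, 2104 and 2933 CPM, against 62.4 to 646 CPM in the other subcutaneous pools, and their part in the collagen values was not tested. The cartilage markers were not raised there, at 3.50, 2.64 and 5.84 CPM in the same order, within the 2.46 to 9.34 CPM of all subcutaneous pools.

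In perirenal fat, DG over CN called 1 of 33 collagen loci (COL18A1, higher), against 0.115% of all 18246 loci. Of the 33 collagen loci, 28 had a log2 fold change above 0, where 48.8% of all loci had, with a median of 0.54 against -0.0078 over all loci. At an unadjusted p below 0.05 there were 12, all higher, where 7.08% of all loci were higher at that p. The median stayed between 0.39 and 0.58 when any 1 pool was left out. In the same fat, DG over HY had 29 of 33 above 0, where 47.7% of all loci were. Its median was 0.52 (0.43 to 0.66 with 1 pool left out) against -0.017 over all loci. It had 0 called (0% of all loci), 12 at an unadjusted p below 0.05, all higher (6.88% of all loci), and 1 called by DESeq2 (COL28A1, against 0.543% of all loci). The DG pools enter both comparisons. Collagens can vary together between perirenal pools (Pearson's r = 0.986 for COL1A1 with COL1A2), so the loci are not separate observations. HY over CN had a median of 0.03, 0 called (0% of all loci), 1 at an unadjusted p below 0.05 (2.31% of all loci) and 0 called by DESeq2 (0.011%).

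COL18A1 (XLOC_001208, chromosome 1, 263365063 to 263423202) was at 50.2, 47.7, 36.2 and 45.6 CPM in CN pools, at 77.4, 91.7, 94.0 and 85.6 CPM in DG pools and at 49.7, 56.9, 72.2 and 79.0 CPM in HY pools. Every DG pool was above every CN pool, and HY lay between and overlapped both. COL18A1 rose by 0.95 in DG over CN (SE 0.154, FDR 0.043), and it differed by 0.52 in HY over CN (SE 0.153, FDR 1) and by 0.44 in DG over HY (SE 0.152, FDR 0.391). The call was lost without any 1 of 9 pools (all but DG F1, HY F2 and HY M2; FDR 0.0604 to 0.235), and it was also lost when RLE size factors replaced TMM.

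Among the other basement membrane chains, COL4A6, which pairs with COL4A5 in a restricted type IV network, was at 1.16, 1.86, 2.13 and 1.74 CPM in CN pools, at 12.3, 12.2, 5.47 and 2.81 CPM in DG pools and at 3.33, 1.56, 3.59 and 2.71 CPM in HY pools. DG was above CN without overlap, but the DG pools ranged widely among themselves. The log2 difference was 2.25 (SE 0.433, FDR 0.0635 by edgeR, 0.000354 by DESeq2). It differed by 1.54 (SE 0.415, FDR 0.302) in DG over HY, the lowest FDR of that comparison, and by 0.70 (FDR 1) in HY over CN. COL4A5 was at 53.6, 144, 53.8 and 19.7 CPM in DG pools and at 19.2 to 33.5 CPM in CN pools (1.38, SE 0.463, FDR 0.317). COL4A2 differed by 0.64 (SE 0.264, FDR 0.423) at the locus with 77.1% of its counts, COL4A1 by 0.21 (SE 0.184, FDR 0.796) and COL15A1 by -0.04 (SE 0.151, FDR 0.968). The log2 ratio of COL4A2 to COL4A1 was -3.05 ± 0.178 (SD, n = 4) in CN, -2.90 ± 0.151 in HY and -2.60 ± 0.086 in DG, with DG above both without overlap (exact permutation p = 0.0286, adjusted 0.161).

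The collagen VI chains COL6A1 and COL6A2 had differences of 0.75 (SE 0.19) and 0.96 (SE 0.24) in DG over CN, both with FDR 0.136. COL6A1 was at 88.3, 98.1, 116 and 103 CPM in CN pools and at 184, 235, 142 and 122 CPM in DG pools, which did not overlap. COL6A3 differed by 0.35 (SE 0.224, FDR 0.681). Groups did not overlap for 6 of 33 collagen loci in DG over CN, 0 in HY over CN and 1 in DG over HY, against 6.44%, 1.56% and 5.36% of all loci.

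Fibrillar chains had a median within-diet SD of 0.483 on the log2 scale between perirenal pools, against 0.437 for basement membrane and 0.444 for other chains. COL1A1 was at 136, 199, 425 and 142 CPM in CN pools, at 1154, 555, 662 and 144 CPM in DG pools and at 122, 87.7, 624 and 236 CPM in HY pools. The DG pools F1, F2 and M1 were high together with HY M1, while DG M2 lay among the low CN and HY pools. The log2 differences were 1.48 for COL1A1 (SE 0.726, FDR 0.557), 1.05 for COL1A2 (SE 0.718, FDR 0.719), 0.42 for COL3A1 (SE 0.363, FDR 0.797), 0.47 for COL5A1 (SE 0.301, FDR 0.687) and 0.24 for COL5A2 (SE 0.232, FDR 0.823) in DG over CN. Fibroblast markers summed to 175 to 289 CPM in CN, 212 to 432 CPM in DG and 161 to 307 CPM in HY perirenal pools, and their part in these differences was not tested.

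The fibril-associated COL12A1 (0.42, FDR 0.784) and COL14A1 (0.61, FDR 0.823) did not pass in DG over CN. COL28A1 was at 9.95 and 4.04 CPM in DG F1 and F2 and at 2.02 CPM or less in the other 10 pools, and the Schwann cell markers summed to 172 and 159 CPM in those 2 pools against 32.1 to 77.1 CPM in the others. Its log2 difference was 2.95 in DG over HY (SE 0.845, FDR 0.321 by edgeR, 0.0404 by DESeq2). The part of nerve in this value was not tested.

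Of the perirenal genes that handle collagen, 1 was called: LAMA5, which rose by 1.24 in DG over CN (FDR 0.0381), 1 of 14 loci of the basement membrane partners (0.115% of all loci). The fibril-binding proteoglycans had 9 of 9 loci above 0 in both DG over CN (median 0.53) and DG over HY (median 0.52), with 2 and 5 higher at an unadjusted p below 0.05 (7.08% and 6.88% of all loci) and 0 called by edgeR. Propeptide removal and cross-linking enzymes had 10 and 11 of 12 loci above 0 (medians 0.46 and 0.48), also with 0 called. In HY over CN the medians of these lists were -0.02 and -0.06.

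**Figure D3:**
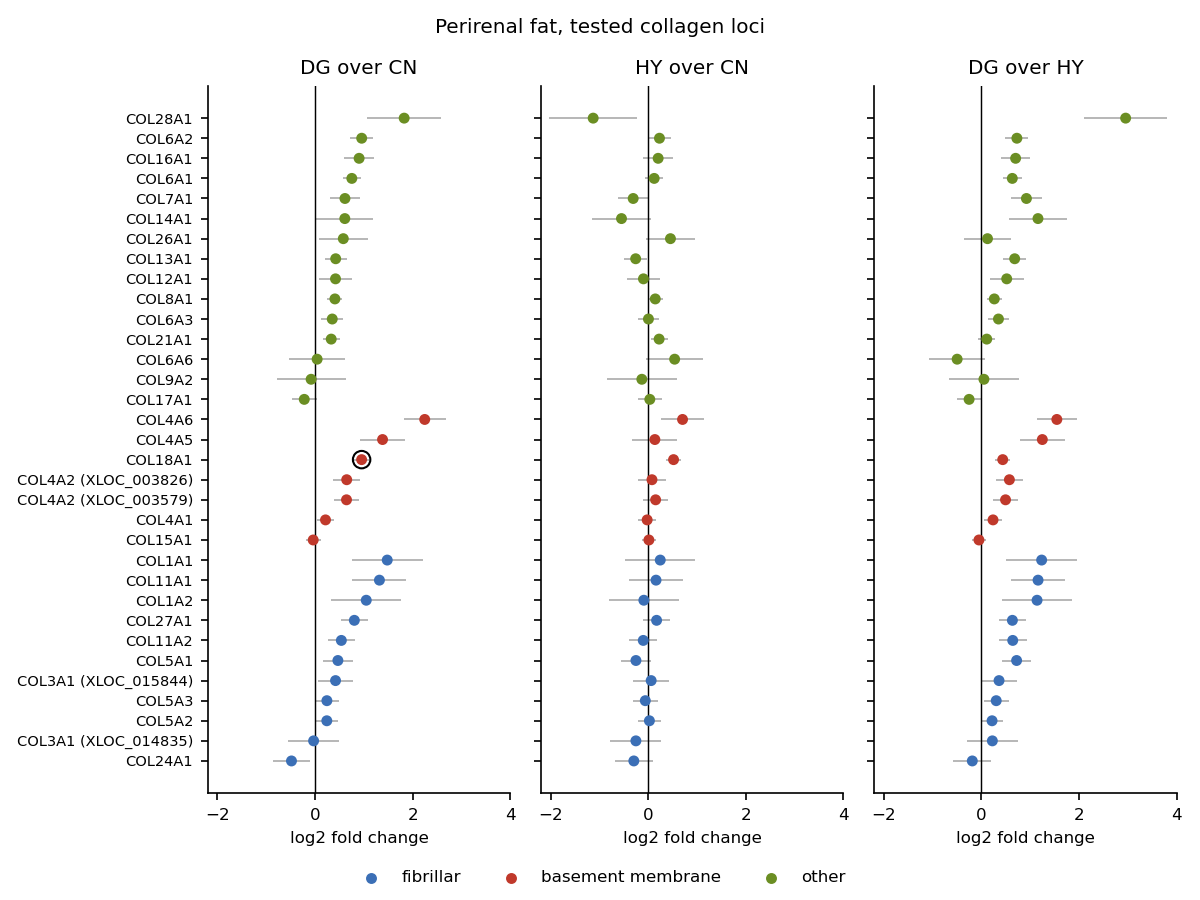
Log2 fold changes (horizontal axes, SE as lines) of the 33 tested collagen loci in perirenal fat for DG over CN, HY over CN and DG over HY, coloured by class, with a ring on the called locus. Of these, 28 lie above 0 in DG over CN and 29 in DG over HY (48.8% and 47.7% of all loci), and COL18A1 is the ringed locus.

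Between tissues, counts were summed by gene name and fitted together, which kept 13612 genes, 38 of them collagens. At FDR ≤0.05 muscle over subcutaneous fat called 24 of 38 collagens (13 higher in muscle, 11 lower), muscle over perirenal fat 31 (23 higher, 8 lower) and subcutaneous over perirenal fat 29 (21 higher, 8 lower). Of all genes 71.9% (36.8% higher, 35.1% lower), 79.9% (42.2% higher, 37.7% lower) and 67% (36.1% higher, 30.9% lower) were called, so that a call by itself is not particular to collagens. The collagen medians were 0.05, 0.77 and 0.84 on the log2 scale, against 0.02, 0.05 and 0.04 over all genes. Without the 5 subcutaneous pools rich in muscle markers, a check chosen after the data were seen, the medians with subcutaneous fat became 0.47 (muscle over it) and 0.43 (it over perirenal).

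By class, fibrillar chains were called higher in muscle than in perirenal fat for 8 of 11 genes and lower for 2, and higher in subcutaneous than perirenal fat for 8 and lower for 1. Of 7 basement membrane chains, 3 were higher and 2 lower in muscle than perirenal fat, and 2 higher and 3 lower in subcutaneous than perirenal fat. Of 20 other chains, 12 were higher and 4 lower, and 11 higher and 4 lower, in the same order. Between muscle and subcutaneous fat, 4 fibrillar chains were higher in muscle and 3 lower, 3 basement membrane chains were higher and 1 lower, and 6 other chains were higher and 7 lower.

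Loci were assembled in each tissue on its own, and only 19 of the 38 collagens had a single locus whose ends lay within 500 bases of each other in all 3 tissues. Among these 19, muscle over subcutaneous fat called 3 higher and 8 lower (median -0.53), muscle over perirenal fat 9 higher and 5 lower (median -0.18) and subcutaneous over perirenal fat 10 higher and 4 lower (median 0.78). In these genes the median was below 0 in both comparisons with muscle and above 0 for subcutaneous over perirenal fat. The loci of other collagens differed in ends or number, among them COL1A1, COL1A2, COL3A1, COL5A1, COL5A2, COL4A2, COL4A4 and COL15A1. So did those of COL6A1, COL6A3, COL8A2, COL11A2, COL17A1, COL23A1 and COL28A1.

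**Figure D4:**
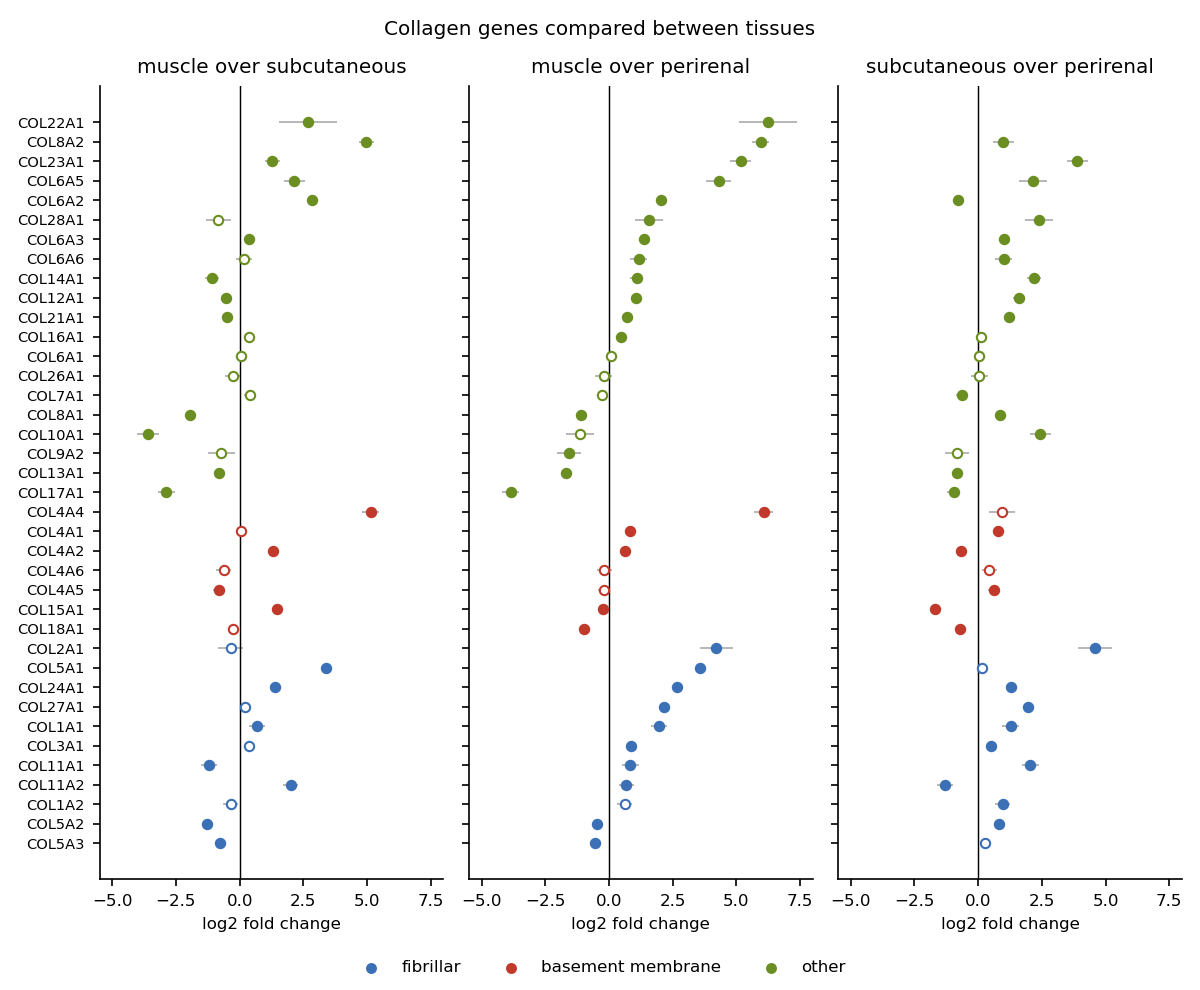
Log2 fold changes (horizontal axes, SE as lines) of the 38 collagen genes in the 3 tissue comparisons, coloured by class, filled where FDR was ≤0.05 and open otherwise. COL22A1 is left out of subcutaneous over perirenal fat, where its SE could not be estimated. COL4A4, COL8A2 and COL22A1 (6 perirenal counts) lie farthest to the right in muscle over perirenal fat and COL17A1 farthest to the left.

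CPM between tissues are given on the scale of the joined table, as lowest, median and highest of 12 pools. COL1A1 was at 639, 1267 and 1587 CPM in muscle, at 296, 631 and 1458 CPM in subcutaneous fat and at 83.3, 206 and 1062 CPM in perirenal fat. COL1A2 was at 268, 517 and 1018 CPM, 393, 684 and 1288 CPM, and 105, 238 and 1097 CPM in the same order of tissues. COL1A1 was higher in muscle than in either fat (by 0.69, SE 0.315, FDR 0.0493, over subcutaneous and 1.96, SE 0.325, over perirenal), yet the ranges of all 3 tissues overlapped.

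COL3A1 had the most counts of any collagen, at 4244, 4655 and 7308 CPM in muscle, 2563, 3659 and 6941 CPM in subcutaneous fat and 1456, 2574 and 5016 CPM in perirenal fat, with overlapping ranges. The type V chains moved apart between tissues. COL5A1 was at 80.9, 144 and 209 CPM in muscle against 8.29, 13.7 and 18.004 CPM in subcutaneous and 6.55, 10.96 and 18.6 CPM in perirenal fat, higher in muscle by 3.41 (SE 0.151) and 3.57 (SE 0.152), without overlap. COL5A2 was at 132, 192 and 353 CPM in muscle, at 365, 512 and 713 CPM in subcutaneous fat and at 209, 265 and 410 CPM in perirenal fat, lower in muscle by 1.28 (log2 difference -1.28, SE 0.136) and 0.46 (-0.46, SE 0.134). The COL5A1 locus did not have matching ends in the 3 tissues.

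Of the cartilage fibril chains, COL2A1 was at 6.76, 9.07 and 22.3 CPM in muscle, 1.11, 4.86 and 67.3 CPM in subcutaneous fat and 0.0741, 0.435 and 2.25 CPM in perirenal fat, so it was higher by 4.58 (SE 0.66) in subcutaneous than perirenal fat, with overlapping ranges. The values of the type XI chains went in opposite directions between the fats, but of these only the COL11A1 locus had matching ends. The COL11A2 locus began at base 7453663 in subcutaneous fat and 7452685 in perirenal fat, with the same end. It was thus shorter in subcutaneous fat, and the part of extent in its difference was not tested. COL11A2 was lower in subcutaneous than perirenal fat (-1.31, SE 0.308, FDR 0.000417), and COL11A1 was higher (2.05, SE 0.337, FDR 4.22e-06), at 7.86, 21.04 and 54.2 CPM against 2.01, 4.68 and 21.1 CPM, with overlapping ranges. Cartilage markers summed to 2.46 to 9.34 CPM in subcutaneous pools and 4.99 to 21.1 CPM in perirenal pools, with 1 of them at 0 in each. COL2A1 was the most variable collagen within diets in subcutaneous fat (SD 1.98 on the log2 scale).

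Among basement membrane chains, COL4A1 was at 1464, 1937 and 2351 CPM in muscle, 1304, 1613 and 2588 CPM in subcutaneous and 762, 1096 and 1325 CPM in perirenal fat. COL4A2 was at 76.4, 303 and 353 CPM, 44.5, 87.1 and 182 CPM, and 89.4, 154 and 237 CPM. COL4A1 was thus higher in subcutaneous than perirenal fat and COL4A2 lower. The COL4A1 locus had matching ends, whereas COL4A2 did not and had 1 member locus in subcutaneous and 2 in perirenal fat. COL4A4, a chain of the restricted type IV network best known from the kidney filter, was at 6.29, 11.4 and 16.7 CPM in muscle, at 0, 0.269 and 1.28 CPM in subcutaneous fat and at 0, 0.0999 and 0.487 CPM in perirenal fat. It was higher in muscle by 5.15 (SE 0.341) and 6.08 (SE 0.367), without overlap, and its locus differed in extent between the tissues.

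COL15A1 set subcutaneous fat apart, at 192, 312 and 498 CPM against 825, 904 and 1016 CPM in muscle and 935, 1064 and 1326 CPM in perirenal fat. It was lower in subcutaneous than perirenal fat by 1.70 (log2 difference -1.70, SE 0.111, FDR 9.17e-15) without overlap, and its SD between pools of a diet was the lowest of the tested collagens in both muscle (0.107) and perirenal fat (0.147). The COL15A1 locus starts lay up to 2269 bases apart, with the longest locus in perirenal fat. COL18A1 was at 13.9, 33.3 and 44.2 CPM in muscle, 19.1, 28.6 and 77.9 CPM in subcutaneous fat and 34.6, 60.6 and 88.6 CPM in perirenal fat.

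The collagen VI chains did not share a pattern between tissues. COL6A1 passed in no comparison, at 57.6, 122 and 217 CPM in muscle, 57.3, 110 and 217 CPM in subcutaneous and 81.8, 108 and 222 CPM in perirenal fat. COL6A2 was at 51.8, 106 and 149 CPM in muscle, above every pool of subcutaneous (4.55, 13.4 and 30.8 CPM) and perirenal fat (13.4, 22.5 and 48.4 CPM), by 2.84 (SE 0.206) and 2.06 (SE 0.199). COL6A3 was at 477, 516 and 702 CPM, 228, 399 and 742 CPM, and 145, 199 and 337 CPM in the same order. COL6A2 is one of the genes with matching locus ends, and COL6A1 is not.

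The fibril-associated chains COL12A1 and COL14A1 were lowest in perirenal fat. COL12A1 was at 52.1, 70.6 and 115 CPM in muscle, 46.9, 89.5 and 206 CPM in subcutaneous and 17.2, 29.99 and 53.8 CPM in perirenal fat, and COL14A1 at 11.4, 20.3 and 45.6 CPM, 32.6, 41.9 and 106 CPM, and 3.49, 7.90 and 26.9 CPM. COL14A1 did not overlap between subcutaneous and perirenal fat (2.18, SE 0.277). COL22A1, found at the junction of muscle and tendon, was at 0.534, 3.66 and 13.9 CPM in muscle and had 6 counts in all 12 perirenal libraries, of which 8 were at 0. Those counts are below the minimum of 10 for a member in that tissue and give no usable fold, although COL22A1 stands among the 31 collagens called in muscle over perirenal fat.

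Network and transmembrane collagens with few counts also differed between tissues. COL8A2 was higher in muscle by 4.97 (SE 0.298) over subcutaneous and 5.96 (SE 0.327) over perirenal fat. It had 2794 counts in muscle but only 66 in subcutaneous and 34 in perirenal fat, so these folds rest on few counts. Its locus also extended 2227 bases farther in muscle than in either fat. The partner chain COL8A1 was lower in muscle, with differences of -1.96 (SE 0.139) and -1.11 (SE 0.136). COL10A1, the collagen of hypertrophic cartilage, had 13 counts in muscle and 130 in subcutaneous fat (-3.58, SE 0.432, muscle over subcutaneous) and was 2.44 (SE 0.408) higher in subcutaneous than perirenal fat. COL23A1 was higher by 5.17 (SE 0.4) in muscle and 3.88 (SE 0.413) in subcutaneous fat than in perirenal fat, where it had 21 counts. Its locus starts lay up to 1744 bases apart, with the shortest locus in perirenal fat.

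COL17A1, a hemidesmosome collagen of epithelia, was highest in perirenal fat, at 1.86, 2.70 and 3.76 CPM, against 0.477, 1.35 and 2.60 CPM in subcutaneous fat and 0, 0.126 and 0.607 CPM in muscle. Its log2 differences were -2.88 (SE 0.344, muscle over subcutaneous), -3.85 (SE 0.333, muscle over perirenal) and -0.97 (SE 0.274, subcutaneous over perirenal). The last was -0.73 with FDR 0.0783 without the 5 subcutaneous pools rich in muscle markers. The COL17A1 locus began at base 23668874 in perirenal fat, 23669027 in subcutaneous fat and 23669922 in muscle. Its extent thus ran in the same order as its level, and the part of extent was not tested. COL13A1, a transmembrane collagen of the neuromuscular junction, was lower in muscle than perirenal fat (-1.67, SE 0.162) and lower in subcutaneous than perirenal fat (-0.83, SE 0.159). COL9A2 was lower in muscle than perirenal fat (-1.56, SE 0.48, FDR 0.00387), but it had only 37 counts in all muscle libraries and 77 in perirenal ones. COL28A1 was higher in subcutaneous than perirenal fat (2.40, SE 0.555), with overlapping ranges. A single pool held 464 of its 1055 subcutaneous counts and another 163 of its 279 perirenal counts.

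The genes that handle collagen also differed between tissues. COLGALT1, a galactosyltransferase of collagen hydroxylysine, was higher in muscle by 3.52 (SE 0.153) and 3.05 (SE 0.149), and FKBP10, a collagen chaperone, was higher in subcutaneous than perirenal fat by 1.37. Among propeptide removal and cross-linking enzymes, the largest difference in each comparison was that of an N-proteinase with few counts. ADAMTS14 was 3.01 higher in muscle than subcutaneous fat, where it averaged 0.211 CPM, and ADAMTS3 was 3.17 and 4.89 higher in muscle and subcutaneous fat than in perirenal fat, where it averaged 0.165 CPM. LOX, the lysyl oxidase that starts cross-linking, averaged 21.7 CPM in muscle, 159 CPM in subcutaneous fat and 17.9 CPM in perirenal fat. It was lower in muscle than subcutaneous fat (-2.86, SE 0.267) and higher in subcutaneous than perirenal fat (3.25, SE 0.273). The collagenase MMP1 averaged 1.04 CPM in muscle and under that in both fats, where its low counts give no usable fold, and MRC2 was 0.78 higher in subcutaneous than perirenal fat.

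Of the receptors, DDR1 was higher in muscle by 1.64 and 2.31, and ITGA1, the alpha chain of a type IV collagen integrin, was 0.73 higher in subcutaneous than perirenal fat. Of the basement membrane partners, HSPG2 was 2.17 higher in muscle than subcutaneous fat, and the laminin chain LAMA2 was 3.52 and 2.14 higher in muscle and subcutaneous fat than in perirenal fat. All 8 fibril-binding proteoglycans were called higher in subcutaneous than perirenal fat (median 1.54; 36.1% of all genes were), and 6 of 8 in muscle than perirenal fat (median 1.23; 42.2% of all genes). They were led by KERA (keratocan, 5.56) and OGN (osteoglycin, 4.004), and OGN was also 1.79 higher in muscle than subcutaneous fat.

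A test of whether a diet difference varied between the 3 tissues called 2 of 38 collagens for DG over HY, COL18A1 and COL22A1, against 3.4% of all 13612 genes. COL22A1 had too few counts in perirenal fat (6 in all) for a diet difference there. For DG over CN it called 0 (0.00735% of all genes), with 4 at an unadjusted p below 0.05 (8.46% of all genes) and 1 called by DESeq2 (COL4A4, against 0.419%). For HY over CN it called 0 (0% of all genes), with 3 at an unadjusted p below 0.05 (7.43%) and 0 called by DESeq2. The COL4A2 difference of DG and HY from CN in muscle therefore was not shown to differ from that in the fats (FDR 0.391 and 0.636).

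COL18A1 (FDR 0.0189) differed between DG and HY by 0.23 in muscle (SE 0.233), by -1.34 in subcutaneous fat (SE 0.344) and by 0.44 in perirenal fat (SE 0.152). All subcutaneous HY pools were above all subcutaneous DG pools, while in muscle and perirenal fat the pools of these diets overlapped. The call was lost without any 1 of the pools DG F2, DG M2, HY F1, HY M1 or HY M2 taken out of all tissues (FDR 0.055 to 0.195), and without the 5 subcutaneous pools rich in muscle markers (FDR 0.197). With the pool, which holds the same fetuses in each tissue, as a replicate block the FDR was 0.0149.

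COL22A1 (FDR 0.0464) was at 0.55, 3.26, 0.53 and 4.17 CPM in muscle DG pools and at 10.03, 4.47, 13.9 and 0.71 CPM in muscle HY pools, on the scale of the joined table. In subcutaneous fat it had 307 and 115 counts in DG F1 and F2 and 165 in CN F2, which are 3 of the 5 pools rich in muscle markers, 1 count each in CN M2 and DG M2, and 0 in the remaining 7 pools including all HY pools. In perirenal fat it had 6 counts over the 12 libraries. Neither fat thus gave a usable DG over HY fold of COL22A1, so its call cannot compare diet differences of the tissues. The call was lost without any 1 of 9 pools (FDR 0.0515 to 0.239), with the pool as a replicate block (FDR 0.142) and without those 5 subcutaneous pools, where 0 of 40 collagens were called.

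**Figure D5:**
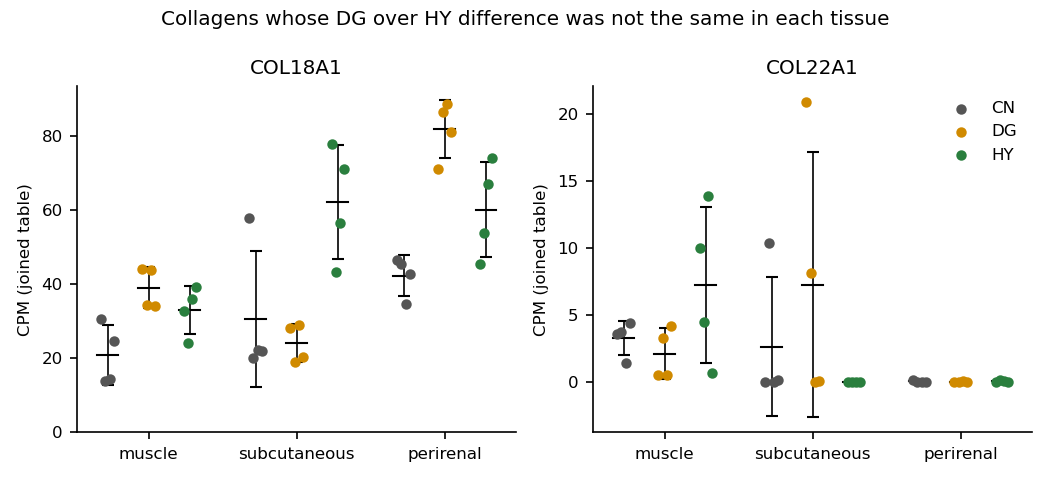
CPM of the joined table (vertical axes) of COL18A1 and COL22A1 by tissue and diet (CN, DG, HY), with a point per pool, the mean as a horizontal bar and SD as error bars (n = 4). COL18A1 in subcutaneous fat was lower in all DG than in all HY pools, and COL22A1 in subcutaneous fat was above 0.2 CPM in 3 pools only.

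Chains that share a trimer, and COL1A1 with COL3A1, which do not, were compared across the 12 pools of each tissue as deviations from the diet mean of log2 CPM, in 12 relations. COL1A1 and COL1A2 had Pearson's r = 0.906 in muscle, 0.766 in subcutaneous fat and 0.986 in perirenal fat, and COL6A1 and COL6A2 had 0.915, 0.795 and 0.929. COL1A1 and COL3A1 had r = 0.902, 0.921 and 0.969, within the range of those partner chains, so such values are not particular to chains of 1 trimer. COL4A1 and COL4A2 had r = 0.979 and Spearman's rho = 0.965 in perirenal fat (permutation p = 1e-05 for each, the smallest that 100000 permutations can give, adjusted 3e-05; r = 0.976 without the 2 farthest pools). In muscle the same pair had r = 0.61 (permutation p = 0.0369, adjusted 0.0403; 0.565 without the 2 farthest pools) but rho = 0.252 (permutation p = 0.432, adjusted 0.432). In subcutaneous fat it had r = 0.47 (permutation p = 0.126) and rho = 0.252 (permutation p = 0.431), and r = 0.148 without the 2 farthest pools. Each pair of values comes from the same library and is scaled by the same total.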

How the data were processed

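RNA of pooled fetuses was sequenced as single-end mRNA libraries on an Illumina HiSeq instrument. The authors aligned reads to the sheep genome Oar_v3.1 with TopHat2 2.0.4, assembled loci in each tissue with Cufflinks 2.1.1 and deposited raw HTSeq counts per locus for each library. The strand setting is not given in the sources used here, and loci of 1 name listed at the same place lie in different runs of the locus list. Within a tissue, each locus was kept by filterByExpr (minimum count 10, minimum total 15), scaled by TMM and tested over all loci with edgeR 4.0.16 (R 4.3.3, limma 3.58.1), quasi-likelihood, with all 12 libraries and Benjamini-Hochberg adjustment at 0.05. CPM used TMM-scaled totals. Between tissues, counts of a name were summed and 36 libraries fitted together, with tissue-by-diet terms for differences between tissues. DESeq2 1.42.0 was an alternative. Chain ratios were tested by two-sided exact permutation and relations by 100000 two-sided permutations (scipy 1.17.1).

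Collagen classes and the lists (chain modification and folding, propeptide removal and cross-linking, collagen breakdown and its inhibitors, collagen receptors, basement membrane partners, fibril-binding proteoglycans, and markers of skeletal muscle, adipocyte, fibroblast, endothelium, epidermis, cartilage, Schwann cell, leukocyte, and kidney and adrenal) and the chain pairs were chosen with earlier results of these data known. Named were 14 abundant collagens in every tissue, all called collagens by diet (with none called, the 2 of lowest FDR), the 4 of largest difference in each direction between tissues, and the called gene of largest difference of each list; other genes close to a threshold or with unusual pools were named after their values were seen. Pools numbered alike in different diets hold different fetuses and were not taken as pairs (mean r -0.0458, 0.191 and 0.0546 in muscle, subcutaneous and perirenal fat, against 0.0175, -0.0677 and -0.0181 for pools numbered differently, with single pairs down to -0.331, -0.417 and -0.0532), whereas a pool number within a diet marks the same fetuses in all tissues (mean r 0.0847, against -0.00755 for other pools). The counts of 54 pairs of pools differed beyond sampling noise (chi-square per degree of freedom 7.954 to 222.7). The tests were checked on simulated counts with 200 large known changes and the same spread for every gene, without shared dams. Each test recovered 100% of those changes, and DESeq2 made more false calls than edgeR there. The spread of the real pools differed between genes, so these rates do not carry over to them.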

Additional observations from a re-analysis of the deposited data

Results flagged for a closer look

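Of 183 groups of 4 pools, 18 had a pool far from the other 3 (9.84%, where chance gives about 1 in 20). In muscle, pool M1 of CN was low for COL6A3 (408 CPM) and COL6A1 (46.1 CPM), and pool F2 of HY was low for COL4A1 (1332 CPM) and COL15A1 (676 CPM) and high for COL12A1 (93.0 CPM) and for the share of other collagens (0.123%). Pool M1 of DG was low for the second COL4A2 locus XLOC_003742 (18.1 CPM) and high for COL12A1 (67.2 CPM), and pool F1 of DG was low for the minor COL3A1 locus XLOC_014527 (375 CPM). In subcutaneous fat, CN F1 was high for COL18A1 (54.0 CPM) and COL6A2 (17.2 CPM), CN F2 for COL5A2 (644 CPM) and the second COL1A2 locus (3.24 CPM), DG F1 for the same COL1A2 locus (3.76 CPM) and DG M1 for COL14A1 (97.2 CPM). In perirenal fat, CN M1 was high for COL1A2 (686 CPM) and for the fibrillar share (0.528%), and CN F1 for the basement membrane share (0.288%). The test of a DG over HY difference between tissues called COL18A1 (FDR 0.0189) and COL22A1 (FDR 0.0464) with edgeR's quasi-likelihood test. COL22A1 had only 6 perirenal counts, so its call cannot compare the tissues.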

How the results depend on the processing

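In muscle, the 2 collagen loci called in DG over CN became 1 with RLE size factors (0.975% of all loci) and 1 with a replicate block (0.711%). They became 1 with only the 8 pools compared (0.0507%), 6 with DESeq2 (3.82%) and 1 to 2 with 1 pool left out. The main test called 1.01% of all loci. Within a tissue the replicate block was the pool number, which does not join the same fetuses across diets. The 5 called in HY over CN (2.69% of all loci) became 2 with the replicate block (1.37%) and 3 with only the 8 pools compared (2.1%). With 1 pool left out they became 1 to 6. In perirenal DG over CN the 1 call (0.115% of all loci) became 0 with RLE (0.0274%) and 0 with the replicate block (0%). It became 0 with loci of 1 name summed (chosen after seeing the data, 0%) and 2 without the filter on low counts (0.122%). It became 4 with DESeq2 (1.49%) and 0 to 1 with 1 pool left out. Calls of 0 became 1 with DESeq2 (5.14% of all loci) and with the replicate block (1.47%) in subcutaneous DG over HY. They became 1 with DESeq2 in perirenal DG over HY (0.543% of all loci) and for DG over CN differing between tissues (0.419% of all genes). With skeletal muscle markers as covariate, subcutaneous calls stayed at 0 (0.167% of all loci in DG over CN, 0% in HY over CN and DG over HY). The collagen medians became 0.0767 (DG over CN), 0.0901 (HY over CN) and -0.0446 (DG over HY), against 0.2, 0.115 and 0.175 without it. The 2 calls of DG over HY differing between tissues (3.4% of all genes) became 1 without the filter (1.12%) and 1 with the replicate block (0.588%). They became 0 without the 5 subcutaneous pools rich in muscle markers (chosen after seeing the data, 0.106%) and 0 to 3 with 1 pool left out. The cause of these changes was not tested.

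The counts called between tissues stayed at 21 to 29, 29 to 34 and 27 to 31 of the collagens in muscle over subcutaneous, muscle over perirenal and subcutaneous over perirenal fat under all alternatives run, and at 26, 32 and 29 with the replicate block, where pools of 1 number hold the same fetuses. Over 34 collagen calls and the 45 chain ratios together, 405 of 433 values under alternatives other than leaving out 1 pool stayed the same. Of the rest 26 became weaker, 2 moved and 0 reversed. For a called gene, weaker means that the call was lost. The ratios were not calls, so these counts do not give the stability of calls alone. With 1 pool left out, 66 of 408 values lost the call, all of them of 8 calls by diet or of a diet difference between tissues. The 2 that moved were the log2 ratio of COL1A2 to COL1A1 in muscle, whose differences became 0.49 (DG over CN) and 0.93 (HY over CN) with only the largest locus of each gene, against 0.06 and 0.39. COL4A2 in muscle was called in every alternative run. Apart from COL4A2 in muscle, the diet calls sat close to the threshold, and 4 pools per diet limit what smaller differences could be seen.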
